A study of Homo sapiens with 95 samples.

Results

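The glutathione and thioredoxin antioxidant genes GCLC, GCLM, GSS, GSR, SLC7A11, TXN, TXNRD1, SRXN1, PRDX1 and GPX2 were followed in AALE cells, a human bronchial epithelial line that was immortalized, across every profiled combination of genotype and chemical. They were listed by symbol, with no threshold on a measured value, although earlier results of these data were known when the list was made. All 10 were among the 27978 genes listed in each of the 95 count files. In the overexpression arm, cells carried NRF2 (the gene NFE2L2), FGFR1, NRG1 or PIK3CA, and the vector control was HcRed. In the knockout arm, FAT1 or CDKN2A was disrupted with CRISPR-Cas9, and the control, called GFP, received the Cas9-EGFP plasmid with no guide. Each of the 8 lines was given cigarette smoke condensate (CSC, 24 μg/ml), benzo[a]pyrene (BaP, 173 μM), the nicotine-derived nitrosamine NNK (490 μM) or the solvent DMSO. RNA was profiled by sparse full length (SFL) sequencing, a pooled and shallow form of RNA-seq on RNA depleted of ribosomal RNA. There were 3 samples in 31 of the 32 combinations and 2 in FGFR1 cells with CSC. All lines share the AALE background, each genotype is represented by 1 line, and neither the length of exposure nor whether a line was a clone or a pool is given in the sources used here. A genotype and its line therefore cannot be told apart.

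Glutathione is a small thiol peptide that cells use to quench peroxides and to conjugate electrophiles. The cystine importer SLC7A11 brings in the sulfur amino acid it is made from, GCLC and GCLM form the rate-limiting ligase of its synthesis, and GSS adds the last residue. GSR returns oxidized glutathione to its reduced form with NADPH, and GPX2 is a glutathione peroxidase of epithelia. In the parallel system, thioredoxin (TXN) reduces protein disulfides, thioredoxin reductase (TXNRD1) recharges it, the peroxiredoxin PRDX1 removes hydrogen peroxide, and sulfiredoxin (SRXN1) repairs peroxiredoxins that were over-oxidized. Most of these genes are known targets of the transcription factor NRF2. KEAP1 keeps NRF2 low until electrophiles or oxidants modify it, and NRF2 then binds antioxidant response elements near its targets. The airway epithelium is exposed to oxidants and electrophiles in smoke, and the pathway is often active in lung squamous tumours.

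The SFL libraries held 287446 to 2116383 counted reads (median 934235). Values are given as CPM, the counts of a gene as a share of all counted reads, scaled with TMM factors over the 95 samples, or as their log2 (prior count 2). The basal epithelial markers KRT5, KRT14, KRT17, TP63, ITGA6, CDH1 and EPCAM had reads in all 95 samples. The other 17 markers, of fibroblasts, endothelium, leukocytes and differentiated airway cells, had medians of at most 1.19 CPM, except COL1A1 (4.72 to 61.7 CPM) and TUBB4B (302 to 932 CPM). The leukocyte marker PTPRC had 7 reads and the club cell marker SCGB1A1 2 reads in total. Each manipulated gene moved the labelled way in its own line under all 4 treatments. NFE2L2 was 2.56 to 2.92 higher on the log2 scale in NRF2 cells than in HcRed cells, FGFR1 4.36 to 4.56, NRG1 7.57 to 8.42 and PIK3CA 2.39 to 2.73 higher. FAT1 minus GFP lay between -1.9 and -1.74 and CDKN2A minus GFP between -1.36 and -0.94, and none of these sets of samples overlapped.

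Levels of different genes were compared per kilobase of exon. The lengths were unions of all exons in GENCODE gene models, whereas the paper counted reads in RefSeq genes. The order and closeness of the levels below therefore depend on the lengths used. In HcRed cells with DMSO, PRDX1 stood at 159 CPM per kb and TXN at 115, followed by GSR at 53.3, TXNRD1 at 52.3 and SRXN1 at 38.3. The enzymes of glutathione synthesis and the cystine importer lay close together, with GCLC at 18.6, GSS at 18.5, GCLM at 17.7 and SLC7A11 at 14.7 CPM per kb. GPX2 was the lowest at 4.12 and rested on 0 to 19 reads per sample (median 5), so its changes are imprecise. TXN and PRDX1 have processed pseudogenes elsewhere in the genome, and reads that match a copy could have been split or lost in counting. How strand was used in counting is not given in the sources used here, so reads of an overlapping antisense gene cannot be told apart.

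The genes divided into those set mainly by the line and those set mainly by the chemical. Of the variation among the 32 combination means of log2 CPM, lines accounted for 84.3% in GSS, 81.5% in SLC7A11 and 66.1% in PRDX1. Treatments accounted for 70.8% in GCLM, 64.8% in TXNRD1, 60.5% in TXN and 57.8% in SRXN1. For GCLC both shares were alike, at 46.4% for lines and 46.0% for treatments. SLC7A11 had the widest range of means, 2.83 on the log2 scale, from 6.73 in NRF2 cells with NNK to 9.56 in CDKN2A cells with CSC. SRXN1 followed with 2.03 among the genes with more than a few reads, from 6.46 in GFP cells with DMSO to 8.49 in CDKN2A cells with BaP. GSR was the flattest, with a range of 0.57 (pooled SD of replicates 0.12).

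**Figure D1:**
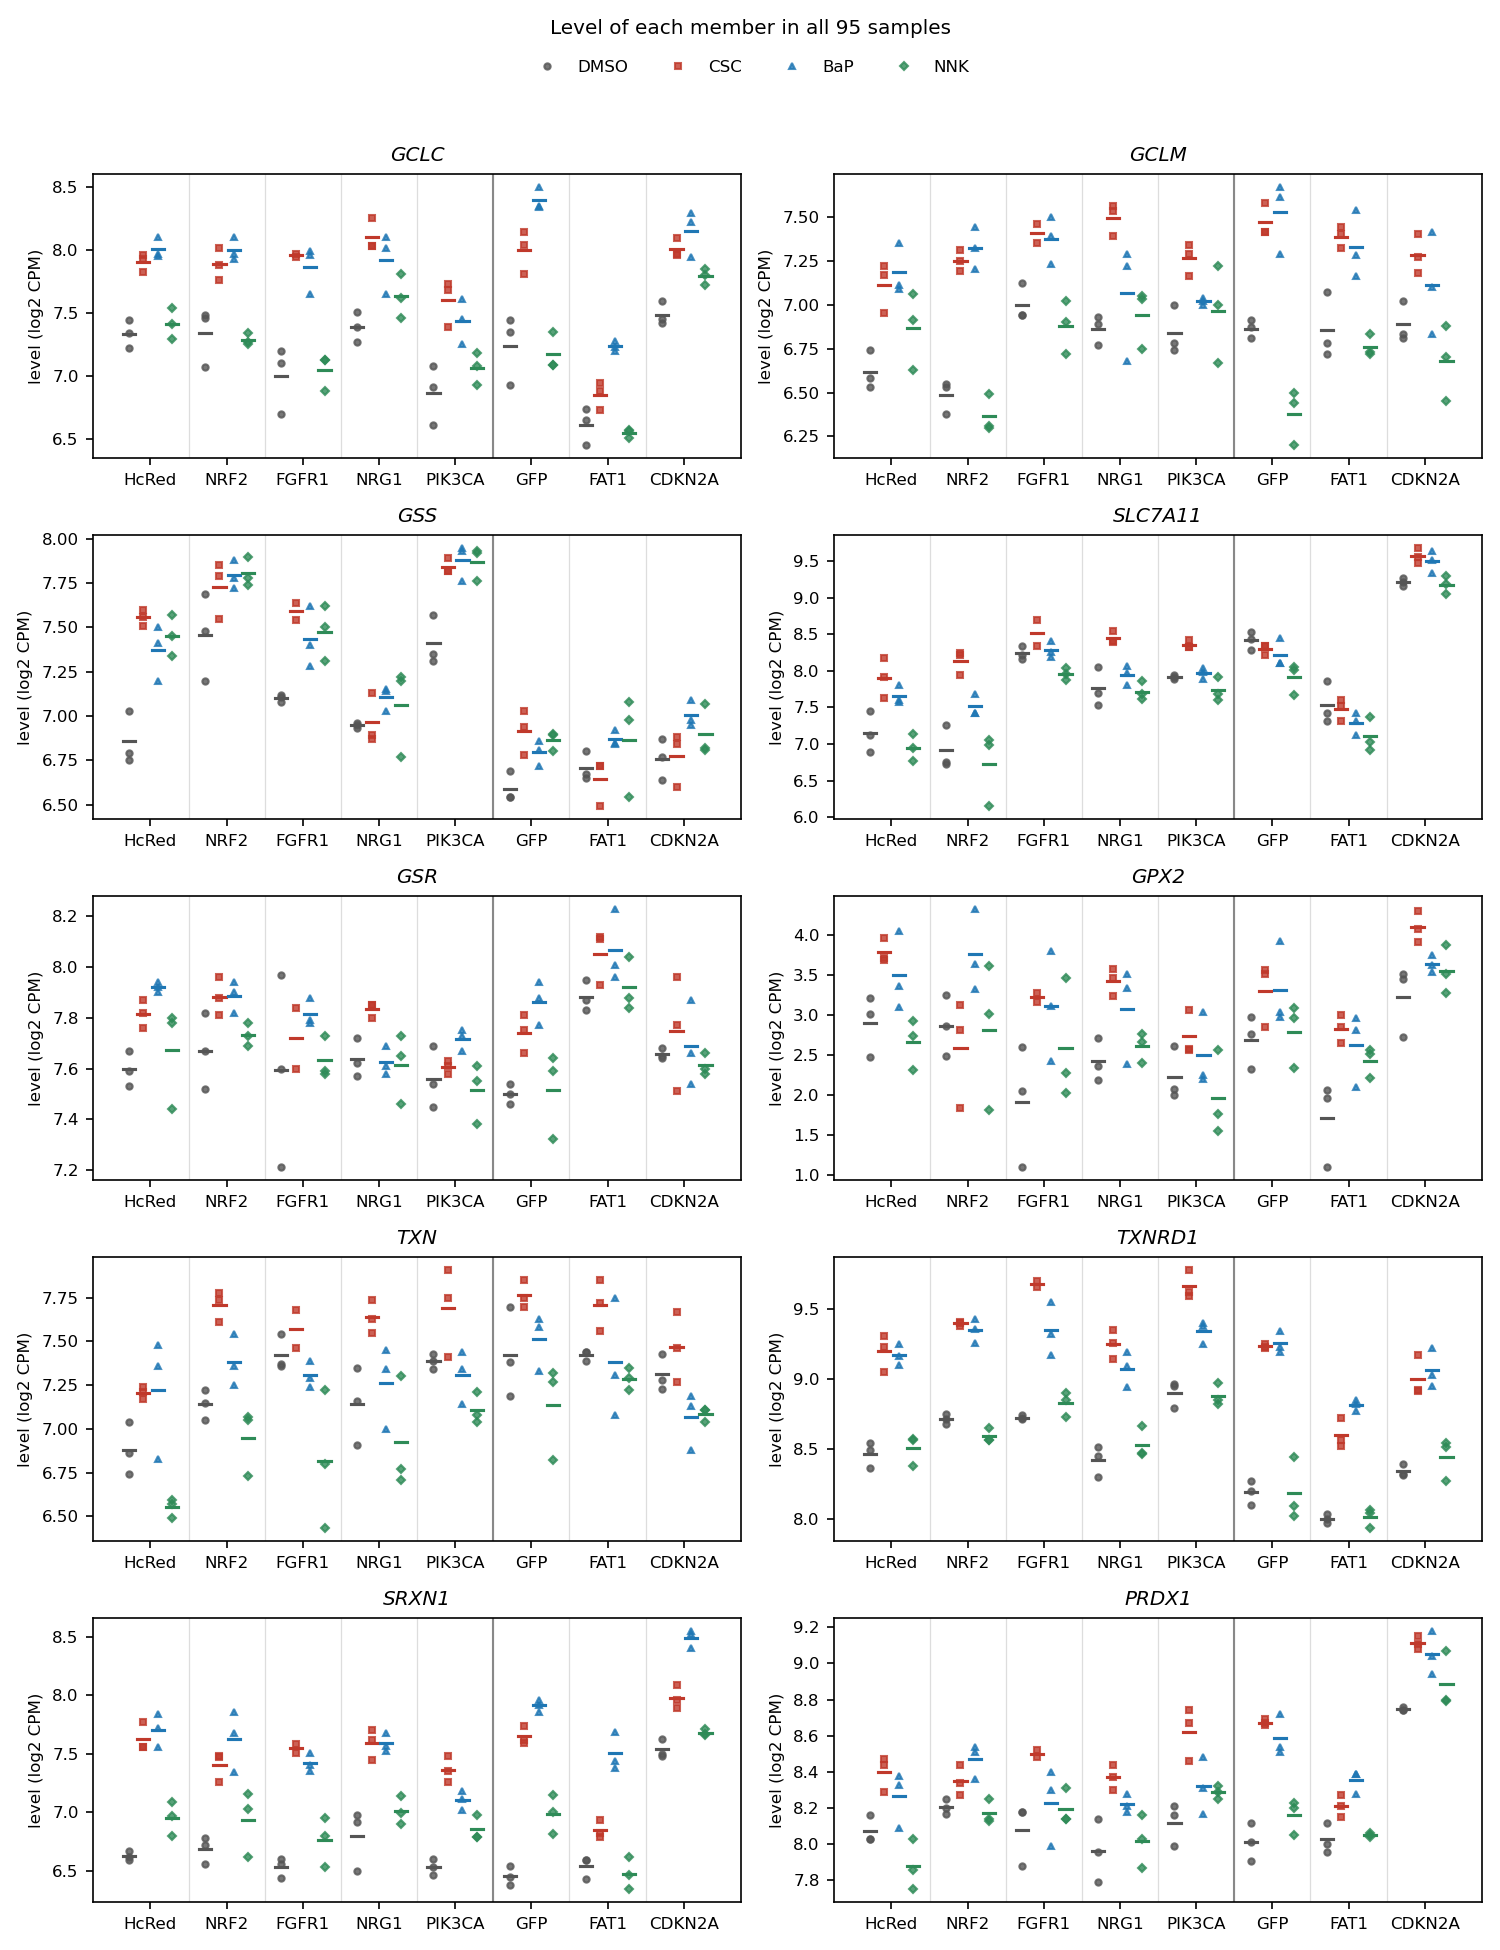
The log2 CPM (y axis) of the 10 antioxidant genes in each of the 95 samples, by line (x axis), with colour and marker for the treatment and a short bar for the mean of a combination. The vertical line separates the overexpression lines from the knockout lines. SLC7A11 and GSS differ mainly from line to line, while TXNRD1 and SRXN1 separate CSC and BaP samples from DMSO samples within every line.

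To ask how the chemicals acted on the genes over all genotypes, each was compared with DMSO in a model that included the line. With CSC all 10 genes rose (adjusted p from limma-voom between 4.74e-43 and 3.69e-05), where 27.8% of the 14497 genes tested rose, 27.4% fell and 55.2% changed in either direction. The median change of the 10 genes was 0.47 on the log2 scale, beside 0 over all genes. TXNRD1, the gene with the smallest adjusted p, was at 249, 352 and 497 CPM (lowest, median and highest of 24 DMSO samples) and at 365, 606 and 879 CPM in 23 CSC samples. This was a 1.74-fold rise (log2 0.80, SE 0.03), and within each of the 8 lines every CSC sample lay above every DMSO sample.

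The peroxiredoxin repair enzyme SRXN1 moved from 81.4, 94.3 and 196 CPM in DMSO to 109, 186 and 270 CPM in CSC, also a 1.74-fold rise (log2 0.80, SE 0.05, adjusted p = 4.22e-27). The pooled ranges overlap, but the samples within a line did not overlap in any of the 8 lines. PRDX1 rose by 0.40 (SE 0.03, adjusted p = 7.59e-19) and likewise did not overlap in any line. TXN rose by 0.34 (SE 0.04, adjusted p = 1.32e-11), with CSC samples above all DMSO samples in 5 lines.

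Among the genes of glutathione synthesis, GCLC went from 85, 150 and 191 CPM in DMSO to 104, 243 and 302 CPM in CSC, a rise of 0.65 (SE 0.05, adjusted p = 2.49e-23). Its partner subunit GCLM went from 81.4, 110 and 137 CPM to 122, 160 and 189 CPM, a rise of 0.54 (SE 0.04, adjusted p = 1.44e-21). GCLM samples with CSC lay above DMSO in 8 lines and GCLC in 7, the exception being FAT1 cells. The importer SLC7A11 rose by 0.39 (SE 0.05, adjusted p = 4.08e-10) and GSS by 0.32 (SE 0.05, adjusted p = 7.49e-09), but only 5 and 4 lines were free of overlap. The reductase GSR rose least, by 0.17 (SE 0.04, adjusted p = 3.69e-05). GPX2 rose by 1.09 with the widest error of the set (SE 0.19, adjusted p = 6.46e-07).

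The RNA of the regulators did not follow the same course. Over all lines NFE2L2 fell by 0.21 with CSC (SE 0.04, adjusted p = 1.94e-07) and KEAP1 rose by 0.35 (SE 0.06, adjusted p = 5.21e-07). In these bulk samples, fewer cells of a kind and less RNA per cell cannot be told apart. CSC and DMSO samples also differed in relation to the GC content of genes, and removing that trend together with the one for exon length enlarged the changes of the AT-rich members. GCLM then rose by 0.85, SLC7A11 by 0.74 and TXN by 0.70, and no CSC call was lost. GCLC (0.81), TXNRD1 (0.90) and GSR (0.24) also rose more than before. The rises of GSS (0.25), SRXN1 (0.73), PRDX1 (0.35) and GPX2 (1.0) became smaller.

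BaP gave a similar list, with TXN set apart. Of the 10 genes 9 rose, where 25.3% of the 14392 genes tested rose, 26.6% fell and 51.9% changed in either direction, and the median change was 0.38 beside 0. The 3 chemicals were compared with the same DMSO samples, so their lists are not independent. SRXN1 reached 128, 195 and 372 CPM in 24 BaP samples, a rise of 0.96 (1.95-fold, SE 0.05, adjusted p = 1.1e-33). GCLC reached 145, 248 and 360 CPM, a rise of 0.73 (SE 0.05, adjusted p = 7.06e-25), and TXNRD1 433, 589 and 749 CPM, a rise of 0.70 (SE 0.03, adjusted p = 9.76e-35). For all 3 of these genes BaP samples lay above DMSO samples in each of the 8 lines, as did those of GSS.

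The other rises with BaP were smaller. GCLM rose by 0.44 (adjusted p = 2.82e-12), GSS by 0.31 (adjusted p = 7.02e-10), PRDX1 by 0.29 (adjusted p = 3.8e-12), GSR by 0.18 (adjusted p = 3.03e-05) and SLC7A11 by 0.17 (adjusted p = 0.00178). GPX2 rose by 0.87 (SE 0.20, adjusted p = 0.000103). TXN differed by 0.05 (95% confidence interval -0.05 to 0.15, adjusted p = 0.403). With the GC and length trend removed, TXN was 0.37 higher (adjusted p = 6.93e-11), GCLM 0.71 and SLC7A11 0.48 higher. GCLC (0.89), TXNRD1 (0.80) and GSR (0.25) also rose more, while SRXN1 (0.89), GSS (0.25), PRDX1 (0.23) and GPX2 (0.78) rose less. NFE2L2 fell by 0.13 (adjusted p = 0.00053) and KEAP1 rose by 0.48 (adjusted p = 2.04e-12).

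Before any correction for GC content, NNK left most of the set near its DMSO level. Of the 10 genes 3 rose and 2 fell, where 25.5% of the 14387 genes tested rose, 26.3% fell and 51.8% did either. Neither share stood out from the background in that fit. With the GC and length trend removed, 6 of the 10 were higher and 0 lower, where 2527 of all genes were called in either direction. GSS rose by 0.33 (SE 0.05, adjusted p = 1.77e-09), with NNK samples above DMSO samples in 5 lines. SRXN1 rose by 0.23 (SE 0.05, adjusted p = 2.03e-05), from a median of 94.3 to 122 CPM. GCLC rose by 0.11 (adjusted p = 0.0403), a call lost without replicate 1 (0.12, adjusted p = 0.0767) and without replicate 3 (0.05, adjusted p = 0.487). TXN fell from a median of 161 to 132 CPM (log2 -0.27, adjusted p = 7.68e-07) and SLC7A11 from 236 to 202 CPM (log2 -0.18, adjusted p = 0.000289). Both falls reversed in sign when the GC and length trend was removed, to 0.08 (adjusted p = 0.221) for TXN and 0.13 (adjusted p = 0.0101) for SLC7A11. TXNRD1 differed by 0.03 with NNK (95% confidence interval -0.02 to 0.09, adjusted p = 0.354) and GCLM by -0.06 (adjusted p = 0.317). With that trend removed both were higher, TXNRD1 by 0.12 (adjusted p = 0.00112) and GCLM by 0.22 (adjusted p = 0.000302).

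**Figure D2:**
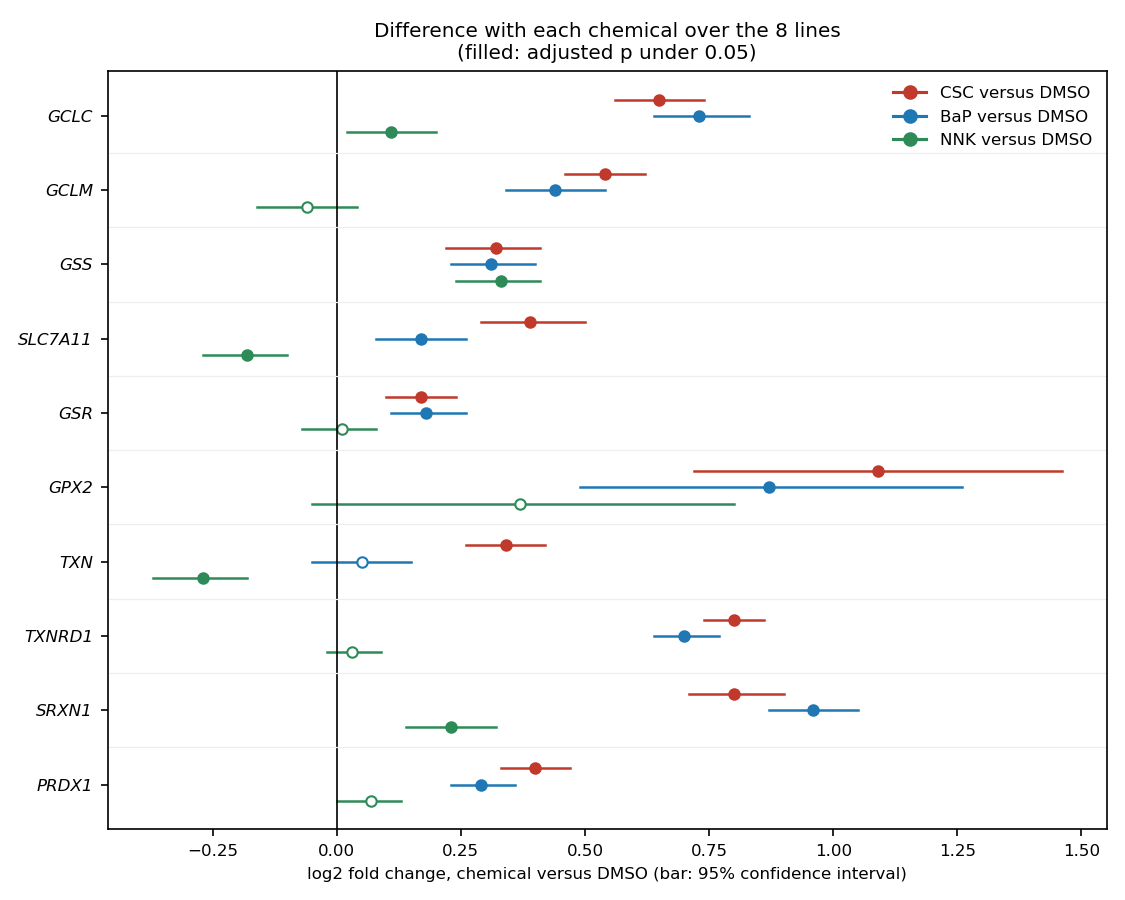
Change of each antioxidant gene with CSC, BaP and NNK against DMSO over the 8 lines, as log2 fold change (x axis) with its 95% confidence interval from limma-voom; filled points had an adjusted p under 0.05. All 10 genes lie above 0 with CSC and 9 are called with BaP, while the NNK changes lie on both sides of 0.

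Because several genes rose together, the RefSeq promoter windows of the set were searched for the core of the antioxidant response element, TGACNNNGC, on both strands. A window runs from 250 bases before the gene's start to 50 after it, and 6 of the 10 genes had an entry (GCLC, GCLM, GPX2, TXN, TXNRD1 and SRXN1). The core was found in 3 of these 6 windows, beside 13.6% of all 27305 windows. The AP-1 site TGACTCA, which overlaps the core when it is followed by GC, was in none of the 6 and in 4.92% of all windows. The 3 windows with a match are shown, TXNRD1 with 2 matches and GCLM and GPX2 with 1 each. The windows of GCLC, TXN and SRXN1 held no match, and these genes also rose with CSC. Sequences are from RefSeq on GRCh38.p14, read 5′ to 3′ on the gene's strand (TXNRD1 chr12:104215529-104215828 on the plus strand, GCLM chr1:93909381-93909680 and GPX2 chr14:64942696-64942995 on the minus strand). Capitals mark the core, which appears as its reverse complement where the match is antisense.
TXNRD1: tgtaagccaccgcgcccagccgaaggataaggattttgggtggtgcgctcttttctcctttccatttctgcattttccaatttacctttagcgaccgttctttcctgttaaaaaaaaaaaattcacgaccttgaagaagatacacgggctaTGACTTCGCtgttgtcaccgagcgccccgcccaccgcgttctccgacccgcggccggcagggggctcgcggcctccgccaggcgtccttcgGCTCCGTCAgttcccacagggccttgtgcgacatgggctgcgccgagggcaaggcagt
GCLM: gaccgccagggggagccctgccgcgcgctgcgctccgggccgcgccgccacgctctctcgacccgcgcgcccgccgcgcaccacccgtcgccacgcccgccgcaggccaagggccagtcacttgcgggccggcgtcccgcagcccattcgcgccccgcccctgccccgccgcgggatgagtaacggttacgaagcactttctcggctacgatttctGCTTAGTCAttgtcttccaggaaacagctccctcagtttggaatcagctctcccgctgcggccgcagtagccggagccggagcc
GPX2: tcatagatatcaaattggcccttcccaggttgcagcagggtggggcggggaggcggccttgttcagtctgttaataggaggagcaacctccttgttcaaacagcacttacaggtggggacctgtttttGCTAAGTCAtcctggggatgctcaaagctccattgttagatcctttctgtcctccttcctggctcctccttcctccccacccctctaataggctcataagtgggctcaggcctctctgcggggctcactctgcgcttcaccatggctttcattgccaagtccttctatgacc
In TXNRD1 the sense match begins 99 bases before the start and reads TGACTTCGC. The antisense match there runs from position -8 to 1 and reads TGACGGAGC on its own strand. In GCLM the match lies antisense from -34 to -26 (TGACTAAGC) and in GPX2 antisense from -122 to -114 (TGACTTAGC). A match is a description of letters in these windows and no measurement of binding.

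Whether the CSC response depended on the line was tested with an interaction of CSC and genotype over all 8 lines. It was called for 5 of the 10 genes, where 1.45% of the 14497 genes tested were called. SLC7A11 differed most among lines (adjusted p = 2.73e-08), followed by SRXN1 (adjusted p = 0.000646), GSS (adjusted p = 0.0275), PRDX1 (adjusted p = 0.0317) and TXNRD1 (adjusted p = 0.037). The call for SLC7A11 was kept under all 10 alternatives. That for SRXN1 was lost without replicate 2 (adjusted p = 0.083) and without replicate 3 (adjusted p = 0.128). The other calls were lost whichever replicate was left out, with adjusted p of 0.139 to 0.288 for GSS, 0.164 to 0.474 for TXNRD1 and 0.213 to 0.396 for PRDX1.

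SLC7A11 rose steeply with CSC in the line where it started lowest. In NRF2 cells it was at 105, 104 and 151 CPM in DMSO and at 244, 296 and 300 CPM in CSC, a difference of 1.22 on the log2 scale. HcRed cells went from 137, 117 and 172 CPM to 196, 240 and 285 CPM (difference 0.75). GFP cells were at 345, 368 and 310 CPM in DMSO and 321, 322 and 296 CPM in CSC (difference -0.12), and FAT1 cells at 230, 169 and 158 CPM and then 158, 192 and 181 CPM (difference -0.05), so that both lines overlapped. CDKN2A cells started highest, at 609, 571 and 588 CPM, and CSC samples still lay above them at 818, 746 and 705 CPM (difference 0.36). None of these differences was corrected for GC content, and over all lines that correction moved SLC7A11 from 0.39 to 0.74.

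SRXN1 showed the smallest response in FAT1 cells. There it was at 83.9, 94.1 and 94.3 CPM in DMSO and at 109, 120 and 111 CPM in CSC (difference 0.31). In GFP cells it went from 90.9, 85.5 and 81.4 CPM to 195, 211 and 190 CPM (difference 1.19), the steepest of the 8 lines. TXNRD1 and PRDX1 had their extremes in the same lines and in NRF2 cells. TXNRD1 differed by 1.04 in GFP and 0.60 in FAT1 cells, and PRDX1 by 0.66 in GFP, 0.18 in FAT1 and 0.14 in NRF2 cells. GSS differed by 0.70 in HcRed cells and by 0.02 in NRG1, -0.06 in FAT1 and 0.02 in CDKN2A cells.

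**Figure D3:**
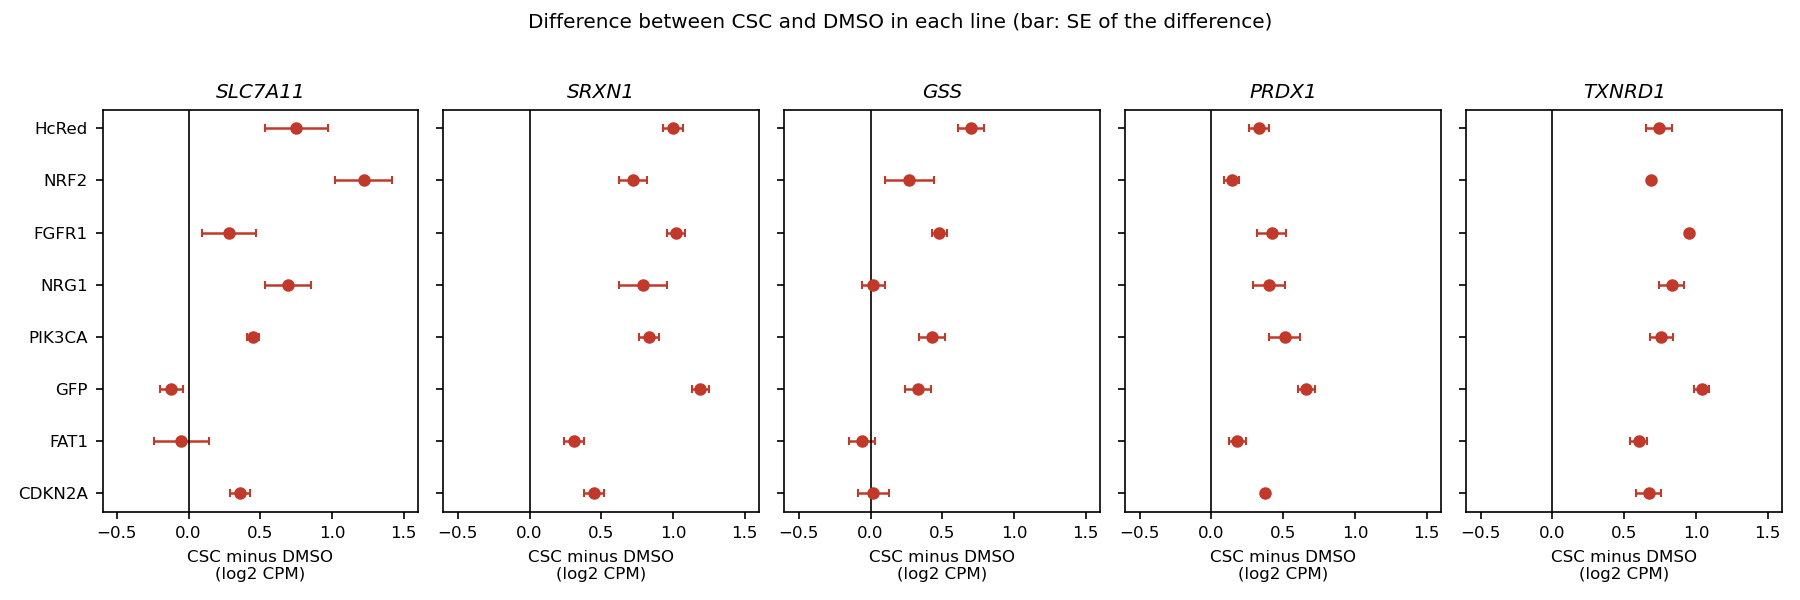
CSC minus DMSO in mean log2 CPM (x axis) with the standard error of the difference, by line (y axis), for the 5 genes called in the test of CSC by genotype. Of these calls, only that for SLC7A11 was kept under all alternatives. SLC7A11 spans -0.12 in GFP to 1.22 in NRF2 cells, whereas TXNRD1 is above 0 in every line, from 0.60 to 1.04.

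Counted line by line, CSC samples lay wholly above DMSO samples for 10 of the 10 genes in HcRed cells, where 19.9% of all tested genes did so. The count was 9 in NRG1 cells (14%), 8 in GFP (18.9%), 7 in NRF2 (13.3%), 7 in PIK3CA (17.8%), 7 in CDKN2A (11.2%) and 6 in FAT1 cells (12.3%). In FGFR1 cells, with 2 CSC samples, it was 7 (20.7%). No gene of the set lay wholly below DMSO with CSC in any line, where 12.2% to 18.3% of all genes did. With BaP the counts were 10 in NRF2 cells (13.1%), 8 in FAT1 (13.4%), 7 in HcRed (11.4%), GFP (12.9%) and CDKN2A (15.0%), and 5 in FGFR1 (11.1%), NRG1 (14.1%) and PIK3CA cells (12.8%). The only gene wholly below DMSO with BaP was TXN in CDKN2A cells, at 138, 116 and 144 CPM against 170, 153 and 148 CPM, where 17.3% of all genes lay wholly below. With NNK between 0 and 3 genes were separated upward in a line, beside 11.2% to 14.9% of all genes, and between 0 and 2 downward, beside 11.3% to 18.7%.

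The CSC response was also compared between HcRed and NRF2 cells. In HcRed cells 9 genes rose and 0 fell, where 13.2% of the 14410 genes tested rose, 10.2% fell and 23.4% did either. SRXN1 rose by 1.02 (SE 0.12, adjusted p = 1.01e-10), TXNRD1 by 0.74 (adjusted p = 5.16e-12), SLC7A11 by 0.74 (adjusted p = 5.35e-07), GSS by 0.73 (adjusted p = 5.96e-07), GCLC by 0.57 (adjusted p = 1.23e-05), GCLM by 0.53 (adjusted p = 0.00101) and PRDX1 by 0.34 (adjusted p = 0.00291). The rises of TXN (0.33, adjusted p = 0.0364) and GPX2 (1.16, adjusted p = 0.0415) were near the threshold. That of TXN was lost without DMSO replicate 1 or 2 (0.29 and 0.27, adjusted p = 0.158 and 0.124) or CSC replicate 2 or 3 (0.30 and 0.32, adjusted p = 0.122 and 0.068). That of GPX2 was lost without DMSO replicate 1, 2 or 3 (0.81, 1.33 and 1.28, adjusted p = 0.27, 0.0511 and 0.0863) or CSC replicate 2 (1.05, adjusted p = 0.116). PRDX1 narrowly missed the threshold with DESeq2 (0.31, adjusted p = 0.0508). With the GC and length trend removed, SLC7A11 rose by 1.21, GCLM by 0.92 and TXN by 0.84. GSR differed by 0.22 (adjusted p = 0.101), and passed with that trend removed (0.30, adjusted p = 0.0392), while GPX2 then did not (1.05, adjusted p = 0.117).

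In NRF2 cells, 6 genes rose with CSC and 0 fell, where 4.7% of the 13943 genes tested rose, 4.51% fell and 9.21% did either. SLC7A11 rose by 1.23 (SE 0.12, adjusted p = 1.41e-16), GCLM by 0.76 (adjusted p = 5.92e-06), SRXN1 by 0.72 (adjusted p = 7.11e-06), TXNRD1 by 0.68 (adjusted p = 8.39e-15), TXN by 0.58 (adjusted p = 5.7e-05) and GCLC by 0.55 (adjusted p = 7.59e-05). GSS differed by 0.26 (adjusted p = 0.125), and passed without DMSO or CSC replicate 1 (0.39 and 0.36, adjusted p = 0.0458 and 0.0349). GSR differed by 0.21 (adjusted p = 0.202), PRDX1 by 0.14 (adjusted p = 0.369) and GPX2 by -0.32 (adjusted p = 0.821). A call in one line and not in the other does not show a difference, so the difference itself was tested. In the interaction of CSC and NRF2, limma-voom called none of the 10 genes, beside 35 of 14277 genes tested (0.245%, of which 0.049% with a more positive and 0.196% with a more negative change in NRF2 cells), 1436 genes at an unadjusted p under 0.05 and 7 genes with DESeq2. Apart from the sparse GPX2 (-1.46, adjusted p = 0.50), the widest gaps were SLC7A11, whose response was 0.52 larger in NRF2 cells (95% confidence interval 0.18 to 0.86, adjusted p = 0.236), and GSS, with -0.45 (-0.77 to -0.13, adjusted p = 0.281).

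Few of these genes differed between NRF2 and HcRed cells. Against HcRed cells in DMSO, 2 of the 10 were higher and 0 lower. Of the 14035 genes tested 3.28% were higher, 3.78% lower and 7.05% either. In the set, the median difference was 0.06 beside 0.01. GSS was at 205, 176 and 145 CPM in NRF2 cells and at 109, 128 and 105 CPM in HcRed cells, with no overlap, and was 0.64 higher (1.56-fold, SE 0.12, adjusted p = 0.000104). TXNRD1 was at 407, 428 and 417 CPM against 357, 325 and 369 CPM, a difference of 0.24 (adjusted p = 0.0461). That call was lost without either of HcRed replicates 1 and 2 (adjusted p = 0.0972 and 0.143) or without any single NRF2 replicate (adjusted p = 0.0815, 0.163 and 0.101 without replicates 1, 2 and 3). The 2 ligase subunits were close to control, GCLC at -0.02 (95% confidence interval -0.25 to 0.20, adjusted p = 0.943) and GCLM at -0.12 (-0.39 to 0.16, adjusted p = 0.707). TXN was at 130, 140 and 146 CPM against 114, 105 and 130 CPM (7.05 in the lowest NRF2 and 7.04 in the highest HcRed sample as log2 CPM, difference 0.24, adjusted p = 0.262), and it passed with the GC and length trend removed (0.43, adjusted p = 0.0138), which made 3 genes higher. SLC7A11 was at -0.27 (adjusted p = 0.231), and without NRF2 replicate 3 it was lower (-0.44, adjusted p = 0.0431).

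Differences between the same lines were also few under the other treatments. With CSC, 1 gene was higher in NRF2 cells and 0 lower, where 2.05% of the 14315 genes tested were higher, 2.78% lower and 4.83% either. It was TXN, at 194, 211 and 218 CPM against 142, 149 and 146 CPM (difference 0.51, SE 0.11, adjusted p = 0.000896), with no overlap. Without HcRed replicate 3, SLC7A11 (0.36, adjusted p = 0.0431) and TXNRD1 (0.25, adjusted p = 0.0377) also passed. With BaP, 1 gene was higher and 0 lower, where 3.13% of the 14412 genes tested were higher, 3.97% lower and 7.1% either. It was GSS, at 218, 209 and 234 CPM against 168, 145 and 179 CPM (difference 0.45, SE 0.11, adjusted p = 0.00297), a call lost without HcRed replicate 2 (0.35, adjusted p = 0.096). With NNK limma-voom called none of the 10 genes, beside 3.89% of the 13488 genes tested (1.73% higher and 2.16% lower), 1984 genes at an unadjusted p under 0.05 and 153 genes with DESeq2. GCLM was then at 77.1, 76.5 and 87.9 CPM against 131, 97.2 and 118 CPM (difference -0.50, adjusted p = 0.077), so that the samples did not overlap but the test was not passed. GSS (0.34, adjusted p = 0.11), TXN (0.42, adjusted p = 0.142) and PRDX1 (0.28, adjusted p = 0.166) were higher with no overlap, and did not pass either. The share of all genes with no overlap was not counted with NNK. With DMSO, 12.5% of 9833 genes averaging 10 reads or more were separated upward in NRF2 cells and 13.7% downward. All 4 comparisons rest on separate samples of the same lines, and NFE2L2 was 2.91, 2.75, 2.54 and 2.74 higher with DMSO, CSC, BaP and NNK.

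**Figure D4:**
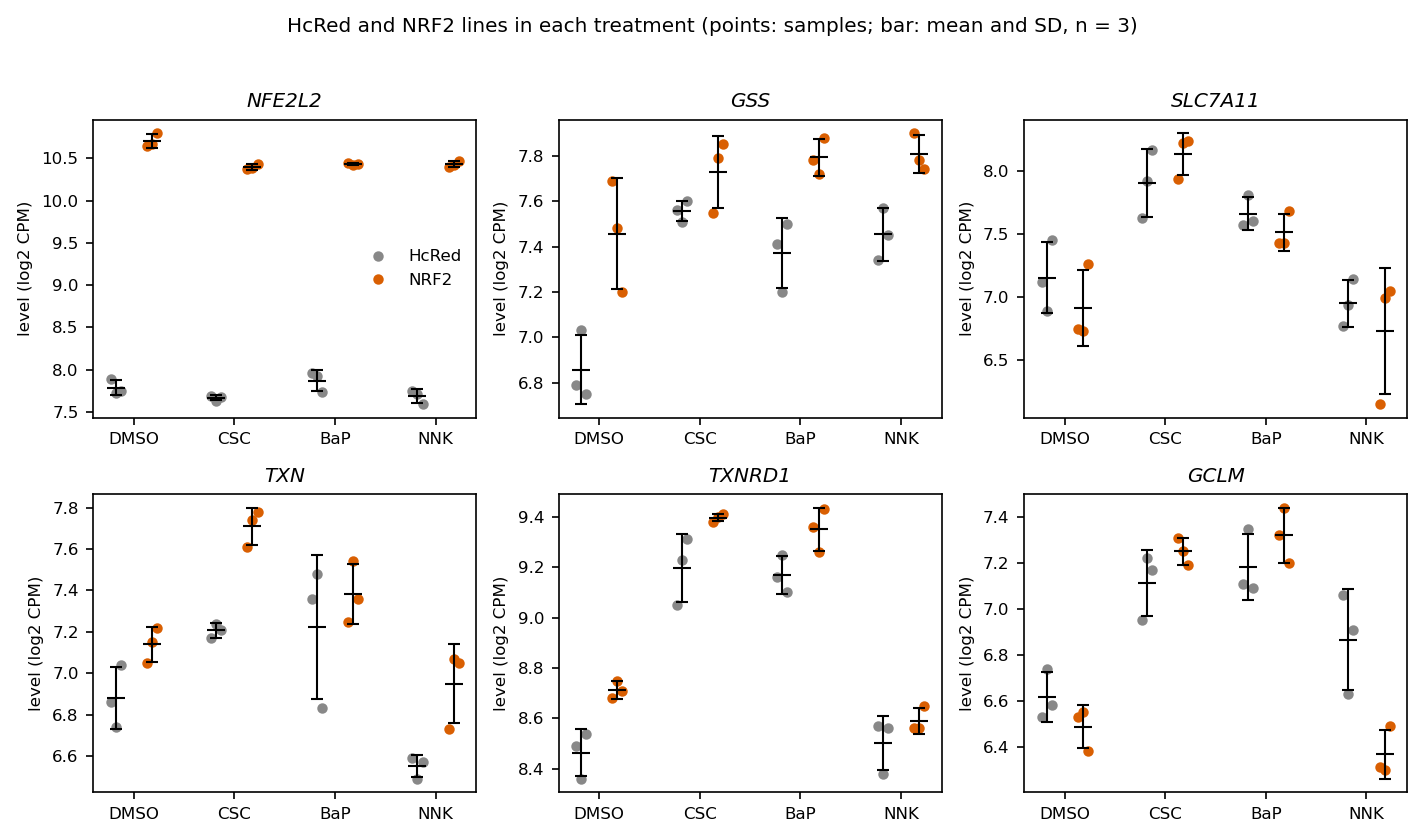
The log2 CPM (y axis) of NFE2L2 and of GSS, SLC7A11, TXN, TXNRD1 and GCLM in HcRed and NRF2 cells by treatment (x axis), with each sample as a point and the mean and SD of 3 samples. NFE2L2 is separated between the lines under every treatment. GSS is separated with DMSO, BaP and NNK, TXN with DMSO, CSC and NNK, and TXNRD1 with DMSO, CSC and BaP. GCLM is separated with NNK only, where it is lower in NRF2 cells, and SLC7A11 overlaps under every treatment.

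The genes on either side of GSS moved with it. GSS lies on chromosome 20 (GRCh37 20:33516235-33543830, minus strand), and 73 other genes within 5 Mb averaged 10 reads or more in the NRF2 and HcRed DMSO samples. Of these, 69 had a higher mean log2 CPM in NRF2 cells, and 49 had all NRF2 samples above all HcRed samples, beside 12.5% of all genes at that count. Their median difference was 0.41, beside 0 over all genes and 0.60 for GSS on the same measure. In PIK3CA cells 42 of 76 nearby genes were separated upward, beside 16.5%, with a median of 0.36. In NRG1 cells the neighbours stood at a median of -0.13, and GSS at 0.09. The part of the chromosomal position in the level of GSS was not tested, and DNA copy number was not analysed here.

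In the other overexpression lines, the common feature was the cystine importer. SLC7A11 was higher than in HcRed cells with DMSO in FGFR1, NRG1 and PIK3CA cells, and these comparisons share the same 3 HcRed samples (137, 117 and 172 CPM). FGFR1 cells held 284, 323 and 294 CPM (difference 1.07, 2.09-fold, SE 0.11, adjusted p = 3.66e-11). NRG1 cells held 264, 206 and 183 CPM (difference 0.63, SE 0.11, adjusted p = 1.02e-05). PIK3CA cells held 234, 243 and 238 CPM (difference 0.72, SE 0.10, adjusted p = 2.65e-07). None of the 3 lines overlapped HcRed. The genes within 5 Mb of SLC7A11 (GRCh37 4:139085251-139163503, minus strand) had medians of 0.02 in FGFR1 and -0.05 in NRG1 cells, over 14 and 13 genes, and of 0.23 over 14 genes in PIK3CA cells.

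In FGFR1 cells 2 genes were higher and 0 lower, where 1.13% of the 14214 genes tested were higher, 0.746% lower and 1.88% either. The second was TXN, at 163, 162 and 184 CPM against 114, 105 and 130 CPM (difference 0.53, SE 0.11, adjusted p = 0.00325), a call lost without HcRed replicate 1 (0.50, adjusted p = 0.0591). Around TXN (GRCh37 9:113006090-113018787, minus strand), 16 of 39 nearby genes were separated upward in FGFR1 cells, beside 9.56% of all genes, with a median of 0.26. In NRG1 cells SLC7A11 was the 1 gene of the set called, where 1.1% of the 14053 genes tested were higher, 0.897% lower and 1.99% either.

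In PIK3CA cells 4 genes were higher, beside 4.77% of the 14278 genes tested, and 1 was lower, beside 3.78% (8.54% in either direction). Besides SLC7A11, the higher genes were GSS at 156, 188 and 161 CPM (difference 0.58, adjusted p = 0.000165), TXN (0.47, adjusted p = 0.00223) and TXNRD1. TXNRD1 was at 442, 493 and 497 CPM in PIK3CA cells and at 357, 325 and 369 CPM in HcRed cells (difference 0.42, SE 0.07, adjusted p = 2.04e-05), the highest DMSO level of the 8 lines. The ligase subunit GCLC was lower, at 133, 118 and 95.2 CPM against 171, 147 and 160 CPM (difference -0.51, SE 0.12, adjusted p = 0.00143). The direction of GCLC was thus opposite to that of the importer in the same cells, and neither set of samples overlapped its control. Within 5 Mb, 13 of 40 genes near TXNRD1, 12 of 41 near TXN and 5 of 14 near SLC7A11 were separated upward, beside 16.5% of all genes. Near GCLC 4 of 18 were separated downward, beside 10.8% of all genes. The part of position was not tested for these genes.

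**Figure D5:**
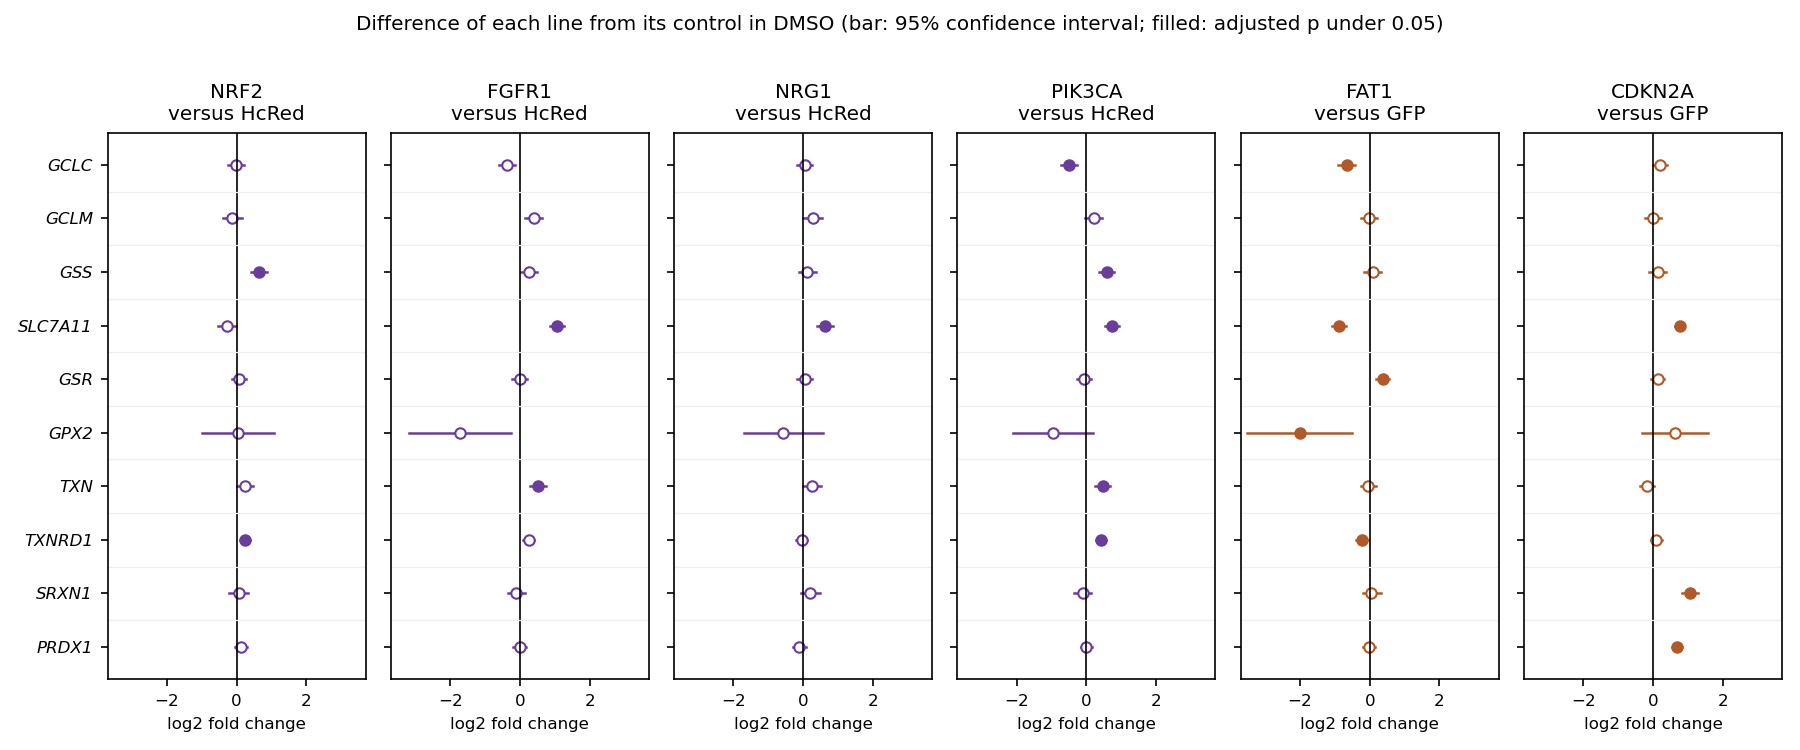
Difference of each antioxidant gene from the control line in DMSO, as log2 fold change (x axis) with its 95% confidence interval from limma-voom, for 6 lines (HcRed is the control of 4 and GFP of 2). SLC7A11 lies above 0 in FGFR1, NRG1, PIK3CA and CDKN2A cells and below 0 in FAT1 cells.

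The knockout lines were compared with the same 3 GFP samples in DMSO, and moved SLC7A11 in opposite directions. In FAT1 cells 1 gene was higher, beside 12.1% of the 14266 genes tested, and 4 were lower, beside 14.2% (26.3% in either direction). SLC7A11 was at 230, 169 and 158 CPM against 345, 368 and 310 CPM in GFP cells (difference -0.89, SE 0.10, adjusted p = 2.44e-09). GCLC was at 104, 98.5 and 85 CPM against 161, 120 and 171 CPM (difference -0.66, SE 0.13, adjusted p = 8.56e-05). Both genes of cystine supply and ligase activity were lower with no overlap, while GCLM differed by -0.02 (adjusted p = 0.934). GSR was higher (0.37, SE 0.09, adjusted p = 0.00226), and its DMSO level in FAT1 cells was the highest of the 8 lines.

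The remaining calls in FAT1 cells were close to the threshold. TXNRD1 was at 258, 249 and 253 CPM against 273, 292 and 306 CPM (difference -0.22, adjusted p = 0.0482), and that call was lost without FAT1 replicate 1, 2 or 3 (adjusted p = 0.0665, 0.135 and 0.0859) or GFP replicate 2 or 3 (adjusted p = 0.0879 and 0.22). GPX2 differed by -2.01 (adjusted p = 0.0462) on a mean of 3.2 reads, and by -1.03 (adjusted p = 0.347) without FAT1 replicate 1. It was also lost without FAT1 replicate 2 or 3 (adjusted p = 0.066 and 0.0719) or GFP replicate 2 or 3 (adjusted p = 0.102 and 0.0977). NFE2L2 itself differed by -0.75 (adjusted p = 1.58e-07), while KEAP1 was 0.50 higher (adjusted p = 0.0113). Near GCLC (GRCh37 6:53362139-53481768, minus strand), 11 of 16 genes within 5 Mb were separated downward, beside 21.4% of all genes, with a median of -0.48. Near GPX2 (GRCh37 14:65405870-65409464, minus strand) 24 of 46 were. The neighbours of SLC7A11 went the other way from that gene, with 8 of 14 separated upward, beside 23.2% of all genes, and a median of 0.34. The part of position in these differences was not tested.

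In CDKN2A cells 3 genes were higher and 0 lower, where 18.6% of the 14540 genes tested were higher, 18.8% lower and 37.3% either. SLC7A11 was at 609, 571 and 588 CPM (difference 0.77, SE 0.07, adjusted p = 1.86e-16), above every DMSO sample of the other 7 lines. SRXN1 was at 176, 178 and 196 CPM against 90.9, 85.5 and 81.4 CPM (difference 1.06, 2.08-fold, SE 0.11, adjusted p = 1.05e-12). PRDX1, a substrate of SRXN1, was at 427, 424 and 431 CPM against 239, 256 and 277 CPM (difference 0.69, SE 0.08, adjusted p = 1.58e-12). Without GFP replicate 2 TXN passed as lower (-0.28, adjusted p = 0.0356), and without GFP replicate 3 GCLC as higher (0.30, adjusted p = 0.0442), as it did with the GC and length trend removed (0.30, adjusted p = 0.0177). SLC7A11, SRXN1 and PRDX1 were higher in CDKN2A cells than in any other line in DMSO, while NFE2L2 differed from GFP by -0.43 (adjusted p = 7.93e-05) and KEAP1 was 0.74 higher (adjusted p = 1.89e-05).

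Neighbouring genes moved with SLC7A11 and SRXN1 in CDKN2A cells as well, but not with PRDX1. Of 15 genes within 5 Mb of SLC7A11, 11 had all CDKN2A samples above all GFP samples, beside 27.7% of all genes, and their median difference was 0.89, against 0.79 for SLC7A11 itself. Of 42 genes near SRXN1 (GRCh37 20:627259-633844, minus strand), 26 were separated upward, with a median of 0.41 against 1.08 for SRXN1. Of 67 genes near PRDX1 (GRCh37 1:45976586-46008404, minus strand), 13 were separated upward and 12 downward, with a median of 0.01 against 0.73 for PRDX1. The part of position was not tested for any of them.

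Ordered by their DMSO means on the log2 CPM scale, SLC7A11 was highest in CDKN2A cells (9.21), followed by GFP (8.42) and FGFR1 (8.24), which did not differ beyond their spread. PIK3CA (7.91), NRG1 (7.76), FAT1 (7.53), HcRed (7.15) and NRF2 cells (6.91) came next, each neighbour within the spread of the other. GSS had a different order, with NRF2 (7.46) and PIK3CA (7.41) on top and GFP (6.59) last. TXNRD1 ran from PIK3CA (8.90) through FGFR1 (8.72) and NRF2 cells (8.71), which did not differ beyond their spread, to FAT1 cells (8.0). The 2 control lines themselves differed in SLC7A11, at 8.42 in GFP and 7.15 in HcRed cells, so a level in a knockout line and one in an overexpression line refer to unequal baselines.

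Across the 32 combination means, the genes of the set were alike to different degrees. These correlations describe the shared libraries and lines, and have no test. GCLC followed SRXN1 most closely (Pearson r = 0.868), and SRXN1 followed PRDX1 (r = 0.819), while GSS stood apart from SLC7A11 (r = -0.252) and SRXN1 (r = 0.0212). Among 5042 genes that averaged 50 reads or more, the gene most like TXNRD1 was NQO1, a quinone reductase (r = 0.877), which was also the gene most like GCLC (r = 0.787). SLC7A11 was most like ME1, a malic enzyme that makes NADPH (r = 0.859), and ATF4, a transcription factor of the amino acid response (r = 0.839). GSS was most like AHCY (r = 0.948) and DLGAP4 (r = 0.935), both on chromosome 20 within 5 Mb of it (GRCh37 20:32868074-32899608 and 20:34894258-35157040). PRDX1 was most like the telomerase RNA TERC (r = 0.863), and SRXN1 like the small nucleolar RNA SNORA81 (r = 0.841). GCLM was most like TIPARP (r = 0.731), GSR like RPS29 (r = 0.787), GPX2 like OTUB1 (r = 0.769) and TXN like TMEM107 (r = 0.67). After NQO1, the next gene was HIST1H4D for TXNRD1 (r = 0.843) and LRP8 for GCLC (r = 0.777).

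The wider pathway was read from 42 further genes, 20 of glutathione metabolism, 18 of the thioredoxin system and 4 that handle superoxide or peroxide. With CSC 17 of the 39 tested rose and 11 fell, beside 27.8% and 27.4% of all genes. GPX3, a secreted glutathione peroxidase, rose by 1.16 (adjusted p = 7.11e-22), the cytosolic peroxidase GPX1 by 0.87 (adjusted p = 7.67e-22) and OPLAH, the oxoprolinase of the glutathione cycle, by 0.82 (adjusted p = 2.47e-10). TXNIP, an inhibitor of thioredoxin, fell by 0.94 (adjusted p = 2.13e-24), GGCT by 0.71 (adjusted p = 8.44e-18) and SESN3 by 0.60 (adjusted p = 5.29e-18). With BaP 15 of 40 rose and 10 fell, beside 25.3% and 26.6% of all genes, led by GPX3 (0.87, adjusted p = 2.86e-13), OPLAH (0.80) and GPX1 (0.59), with GPX8 the furthest down (-0.47, adjusted p = 3.49e-09). With NNK 12 of 40 rose and 13 fell, close to the 25.5% and 26.3% of all genes, among them OPLAH up by 0.77 (adjusted p = 1.59e-09) and GGCT down (-0.54, adjusted p = 4.28e-12). The median change of the tested genes of this wider list was 0.19 with CSC and 0.10 with BaP.

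Between lines, GPX3, GPX8, TXNIP and OPLAH were each called in more than 1 comparison. In NRF2 cells GPX3 was lower than in HcRed cells with DMSO (-1.82, adjusted p = 0.00134), CSC (-2.47, adjusted p = 4.25e-08), BaP (-1.82, adjusted p = 1.93e-06) and NNK (-2.05, adjusted p = 0.000115). GPX8, a peroxidase of the endoplasmic reticulum, was also lower under all 4 treatments, by between -0.66 (adjusted p = 0.00788) and -1.12 (adjusted p = 0.000192). PRDX2 was higher in NRF2 cells with DMSO (0.82, adjusted p = 0.00281) and with NNK (0.67, adjusted p = 0.0315). Of 38 genes tested with DMSO, 2 were higher and 5 lower, beside 3.28% and 3.78% of all genes. In FGFR1 cells limma-voom called 0 of the 38 tested, beside 267 of all 14214 genes, 1800 of all genes at an unadjusted p under 0.05 and 83 of all genes with DESeq2. In NRG1 cells only SESN3 was called (-0.44, adjusted p = 0.0225), and in PIK3CA cells 4 were lower, with TXNIP at -1.26 (adjusted p = 8.83e-13).

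The same list was compared in the knockout lines. In FAT1 cells 10 of 39 were higher and 5 lower than in GFP cells, beside 12.1% and 14.2% of all genes (26.3% either). OPLAH was 1.39 higher (adjusted p = 0.00417), and CHAC1, which degrades glutathione, differed by -1.12 (adjusted p = 0.000687). In CDKN2A cells 10 of 40 were higher and 4 lower, beside 18.6% and 18.8% of all genes (37.3% either). GGT7 was 1.99 higher (adjusted p = 0.000137), OPLAH 1.87 (adjusted p = 3.31e-05) and GPX3 1.22 (adjusted p = 1.03e-05), while TXNIP differed by -0.85 (adjusted p = 1.87e-13).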

How the data were processed

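Single-end SFL reads of 95 AALE samples were trimmed by the authors with cutadapt 1.12, checked with FastQC 0.11.5, aligned to hg19 with STAR 2.5.2b and counted per gene with featureCounts, versions and genome build as in the submitters' processing notes. The deposited values are whole-number counts of reads per gene with no normalization, and this was the only unit used. Groups and replicate numbers came from the sample labels. Depth was 287446 to 2116383 counted reads, so a gene with few reads, such as GPX2, is known only to counting error or worse.

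Scaling used TMM from edgeR 4.0.16, and the tests were moderated, 2-sided ones of limma 3.58.1 after the voom transformation, run in R 4.3.3 on the samples of each comparison, on genes whose mean count there was above 1, with Benjamini-Hochberg adjustment over all of these genes and a threshold of 0.05. Comparisons of a chemical over all genotypes had the line as a covariate. P-values measure the spread between samples of the same line and treatment, and each genotype was 1 line. In the comparisons of a chemical over all genotypes, that spread also holds differences between lines in their response. GC content and exon length were known for 24309 of the 27978 genes (86.9%), from GENCODE gene models on GRCh37. The alternatives tried were DESeq2 1.42.0, the quasi-likelihood test of edgeR, DESeq2's size factors, a mean count of at least 10, no filter, the replicate number as a block, a GC and length trend removed by loess (span 0.3), the 10000 most variable genes, 1 fit of all 95 samples, and each replicate left out. The scripts were tested on simulated counts.

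The 10 genes, the wider list of 42 genes and the tests were chosen with earlier results of these data known. All 10 genes are described. From the wider list, up to 3 genes in each direction with the largest change among those past the threshold, with a mean count of 10 or more, were eligible to be named in each comparison, and the 2 genes outside the set with the highest Pearson r over the 32 combination means were taken as most like each gene. Counts of nearby genes were added after the values of the 10 genes had been seen. Microarray, other sequencing protocols and protein data were not analysed here.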

Additional observations from a re-analysis of the deposited data

Results flagged for a closer look

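A difference between lines in the response to CSC was called for 5 of the 10 genes, by the test of the interaction of CSC with genotype over 47 samples, where 1.45% of all genes were called. The adjusted p (limma-voom, Benjamini-Hochberg) was 2.73e-08 for SLC7A11, 0.000646 for SRXN1, 0.0275 for GSS, 0.0317 for PRDX1 and 0.037 for TXNRD1. For SLC7A11 the difference between CSC and DMSO ran from -0.12 in GFP to 1.22 in NRF2 cells on the log2 scale, and it was positive in 6 of 8 lines. The differences per line were not corrected for GC content. Removing the GC and length trend moved the change of SLC7A11 over all lines from 0.39 to 0.74. For SRXN1, PRDX1 and TXNRD1 the difference was positive in 8 of 8 lines and varied in size, and for GSS it was positive in 7. The call for SLC7A11 was kept in 10 of 10 alternatives and that for SRXN1 in 8, but GSS kept it in 3, and PRDX1 and TXNRD1 in 2 each. With a replicate left out, GSS, PRDX1 and TXNRD1 were called in 0 of 3 fits and SRXN1 in 1 of 3.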

How the results depend on the processing

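There were 2086 tests of the 10 genes under the alternatives. Of these, 1989 kept their side of the threshold, 77 fell short of it and 17 newly passed it. Another 3 reversed in sign, with a call in at least 1 of the fits compared. A change of sign with no call in either fit was counted as kept, and the test of CSC by genotype has no direction. The 3 that reversed were TXN (0.08), SLC7A11 (0.13) and GCLM (0.22) with NNK after removal of the GC and length trend, which also gave 6 members higher and 0 lower with NNK, and left 4782 genes called with CSC, 3507 with BaP, 2527 with NNK, 1059 with CSC in HcRed cells, 586 with CSC in NRF2 cells, 11 for CSC by NRF2 and 131 for CSC by genotype. Scaling with DESeq2's size factors moved the median gene by -0.009 (log2). Members higher in NRF2 cells numbered 1 with DMSO by edgeR, by DESeq2, without a filter and in 1 fit of all samples (1 to 2 with a replicate left out, and 0 to 1 lower), and 3 with the GC trend removed. With CSC they numbered 2 with DESeq2's size factors, the replicate block or the GC trend removed (1 to 3 with a replicate left out), and with BaP 0 by DESeq2 (0 to 1). DESeq2 gave 1 member higher in FGFR1 cells (1 to 2 with a replicate left out) and, like edgeR, 2 lower in FAT1 cells (2 to 4). In CDKN2A cells 0 to 1 members were lower with a replicate left out. Members called for CSC by genotype numbered 3 by edgeR and 2 by DESeq2, with its size factors, without a filter or without the GC trend (1 to 2 with a replicate left out). DESeq2 called fewer genes in all, namely 307, 222, 300 and 153 for NRF2 with DMSO, CSC, BaP and NNK, 83 for FGFR1, 72 for NRG1, 460 for PIK3CA, 1983 for FAT1, 3402 for CDKN2A, 1528 and 376 for CSC in HcRed and NRF2 cells, 7 for CSC by NRF2 and 60 for CSC by genotype. One fit of all samples called 169 genes for NRG1, and no filter gave 11531 for NNK, 19 for CSC by NRF2 and 116 for CSC by genotype. With a replicate left out, calls over all genes were 603 to 1021, 382 to 668, 564 to 1304 and 344 to 439 for NRF2 with DMSO, CSC, BaP and NNK, 121 to 267 for FGFR1, 155 to 267 for NRG1, 2167 to 3253 and 838 to 1024 for CSC in HcRed and NRF2 cells, 20 to 36 for CSC by NRF2 and 98 to 106 for CSC by genotype. The cause of these changes was not tested.

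The labels do not say whether samples with the same replicate number were handled together. Their deviations from the group means correlated by -0.00863 to 0.0539 on average, and a shared batch was not tested. With the replicate block, 5 of 160 member calls changed, 1 member was lower in NRF2 cells with NNK (GCLM, -0.52, adjusted p = 0.0404 in limma-voom), and CSC by NRF2 called 69 genes. A mean of 3 samples at this depth leaves small differences of low genes such as GPX2 undetectable.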
